A study of Caenorhabditis elegans with 12 samples.

Results

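The V1 sector is the cytosolic part of the vacuolar proton pump (V-ATPase), and its transcripts were examined here in whole Caenorhabditis elegans that lack members of the miR-58 microRNA family. The members were taken by name, as the 9 genes for cytosolic V1 subunits among 16309 genes in the authors' deposited table: vha-8, vha-9, vha-10, vha-11, vha-12, vha-13, vha-14, vha-15 and vha-18. All 9 were listed. RNA was sequenced from 12 samples, 3 for each of 4 genotypes at the late L4 stage. The mir-58 mutant (strain MT15024) carries mir-58(n4640) on chromosome IV. The double mutant (MT18409) carries the deficiency nDf53 on chromosome III, labelled as loss of mir-80, together with mir-58(n4640). The quadruple mutant (MT15563) carries both of these and nDf54 on the X chromosome, labelled as loss of mir-81 and mir-82. Wild type was the N2 Bristol strain. Each mutant genotype is a single strain, and animals of all genotypes ate bacteria labelled with light lysine and arginine and were synchronised by bleaching. The mir-58 mutant and wild type were collected 33 h after transfer to food. Collection followed wild type by 6 h in the double and by 15 h in the quadruple mutant, which developed more slowly, so in both strains genotype and time of collection cannot be told apart.

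The V-ATPase uses ATP to pump protons out of the cytosol, into lysosomes and other compartments or across the plasma membrane of epithelial cells. Subunits A and B form the head, where ATP is split, and turn a central shaft made of D and F. E and G form peripheral stalks that hold the head still, and C and H join these parts to the membrane-embedded V0 sector. V1 can detach from V0, which stops the pump. In C. elegans the pump serves the intestine, the excretory canal, the epidermis and neurons, and its subunits are encoded by the vha genes.

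The values are the authors' own log2 fold changes of each mutant over wild type and their adjusted p-values. A gene was called lower or higher where the adjusted p was under 0.05. Levels and counts per sample were not analysed here, so neither depth nor replicate spread is known, and no level can be compared between genes. The p-values rest on 3 samples a genotype, and the labels do not say whether these came from separate cultures, so the spread behind them may be technical. In whole animals, fewer cells of a type and less RNA per cell cannot be told apart. Loss of the deleted microRNAs was not checked here, since the table does not list them.

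Transcripts of 7 of the 9 V1 genes fell in the quadruple mutant, and 1 rose. Of subunits A to H, each had at least 1 gene that fell in this strain except G. The gene that rose was vha-18, 1 of a pair of genes for subunit H. In the double mutant 3 genes fell and vha-18 rose, and in mir-58 none was called. The median log2 fold change of the 9 genes was -0.30 in mir-58, -0.59 for the double and -0.84 for the quadruple mutant. The same median over all listed genes was -0.06, 0.08 and 0.11 in the same order. A value of -0.84 is a level of 0.559 times wild type.

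These counts stood beside different backgrounds. In the quadruple mutant 9.82% of all listed genes were called lower and 14.2% higher, against 7 of 9 and 1 of 9 V1 genes. In the double mutant the background was 5.86% lower and 10.5% higher, against 3 of 9 and 1 of 9. In mir-58 it was 5.79% lower and 1.65% higher, and no V1 gene was called in either direction. The fit there was the authors' DESeq comparison, and unadjusted p-values were not analysed here. The smallest adjusted p among the 9 genes in mir-58 was 0.184 per the authors' deposited table, and none passed a threshold of 0.1 either.

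**Figure D1:**
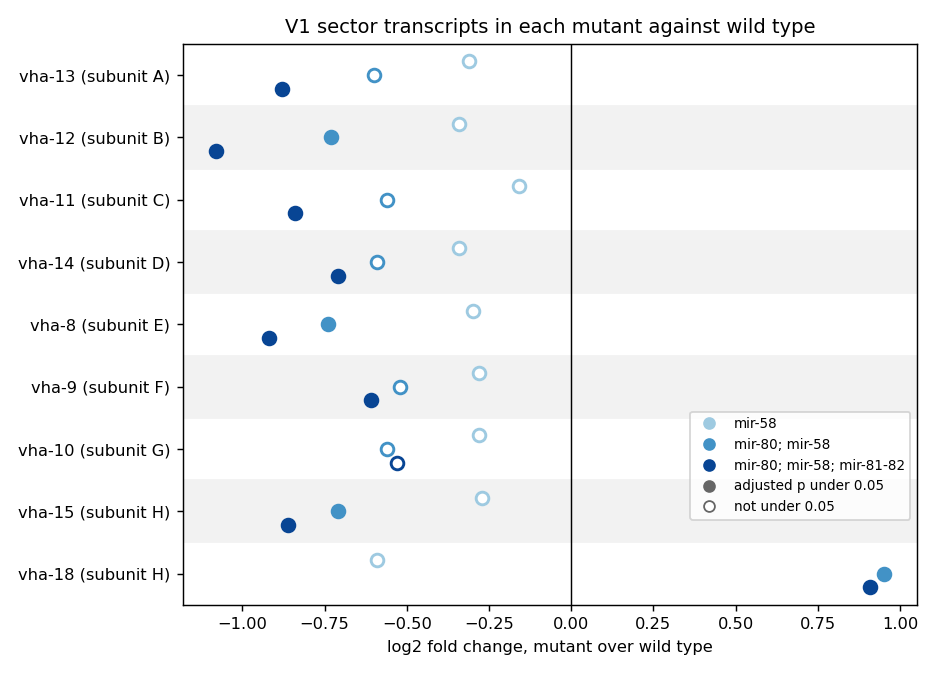
Log2 fold change of each V1 gene in the 3 mutants over wild type, as deposited by the authors. Each point is 1 gene in 1 mutant, filled where the adjusted p is under 0.05; the quadruple mutant has filled points for 7 genes between -1.08 and -0.61 and for vha-18 at 0.91.

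The catalytic head had the lowest value in the quadruple mutant. The gene of subunit B, vha-12, which pairs with the catalytic subunit, stood per the authors' deposited table at -0.34 in mir-58, -0.73 for the double and -1.08 for the quadruple mutant. The authors' deposited table calls it lower in the double (adjusted p = 0.019) and quadruple mutants (adjusted p = 0.00036), and its level in the quadruple was 0.473 times wild type. Subunit A, which binds and splits ATP, is encoded by vha-13. Per the authors' deposited table it stood at -0.31, -0.60 and -0.88, and it fell in the quadruple mutant (adjusted p = 0.00978) but had adjusted p = 0.108 in the double. Both head genes were thus below wild type in every mutant and called in the quadruple. The annotated span of vha-13 overlaps that of Y49A3A.3 on the same strand, so reads there may be shared. The authors' deposited table gives Y49A3A.3 at -0.11, 0.05 and 0.01, without a call.

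The rotor genes moved less than the head genes in the quadruple mutant. For vha-14, the gene of subunit D, which forms the central shaft, the authors' deposited table gives -0.34, -0.59 and -0.71. The adjusted p in the authors' deposited table was 0.0783 for the double mutant and 0.0263 for the quadruple, where it fell. Its partner in the shaft, subunit F, is encoded by vha-9, at -0.28, -0.52 and -0.61 per the authors' deposited table. The authors' deposited table puts this gene outside the threshold in the double mutant (adjusted p = 0.111) and just inside it in the quadruple (adjusted p = 0.0476). The difference in size between head and rotor genes was not tested.

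The peripheral stalk genes split. Subunit E is encoded by vha-8, which the authors' deposited table places at -0.30, -0.74 and -0.92. Both multiple mutants had it lower by the authors' deposited table (adjusted p = 0.0359 in the double and 0.00712 in the quadruple). The gene of subunit G, vha-10, was not called in any mutant: the authors' deposited table has it at -0.28, -0.56 and -0.53 (adjusted p = 0.389, 0.0793 and 0.0927). It was thus the 1 gene of the pump head, shaft or stalks without a call in the quadruple mutant, and its values were below wild type in all 3 mutants. A p above the threshold does not show that vha-10 kept its wild-type level.

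Subunit C, which regulates the joining of V1 to V0, is encoded by vha-11. The authors' deposited table gives -0.16, -0.56 and -0.84 for it, and it fell in the quadruple mutant (adjusted p = 0.00716) but not in the double (adjusted p = 0.104). It had the V1 value nearest to 0 in mir-58. Its upstream neighbour on the same strand in the annotation is vha-3, a gene of the V0 ring, which is not among the listed genes.

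The 2 genes of subunit H went opposite ways in the multiple mutants. Subunit H lies between V1 and V0, and in yeast it is needed for activity and silences V1 once detached. Per the authors' deposited table vha-15 was at -0.27 in mir-58, -0.71 for the double and -0.86 for the quadruple mutant, and it fell in the multiple mutants (adjusted p = 0.0221 and 0.00513). The values of vha-18 per the authors' deposited table were -0.59, 0.95 and 0.91, and it rose in both multiple mutants (adjusted p = 0.021 and 0.023) without a call in mir-58 (adjusted p = 0.184). It thus had the lowest V1 value in mir-58 and the highest in both multiple mutants. The ratio of vha-18 to vha-15 was 3.16 times that of wild type for the double, 3.41 times for the quadruple mutant and 0.80 times for mir-58. These ratios have no test of their own and say nothing of which gene has more transcripts.

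**Figure D2:**
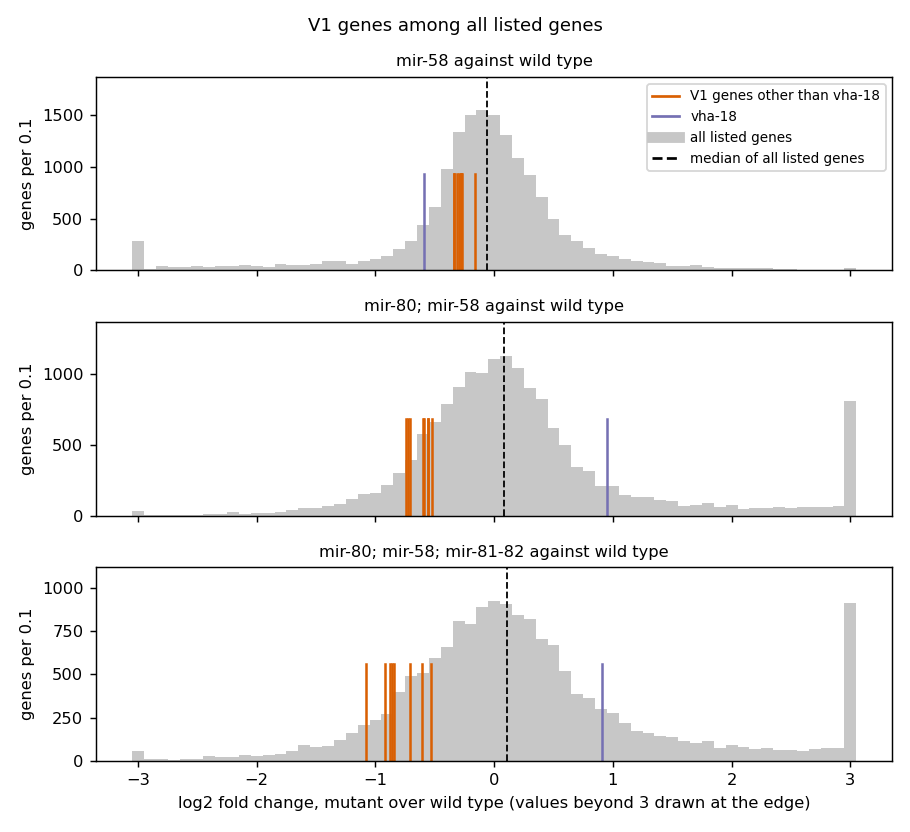
Number of listed genes per 0.1 of log2 fold change over wild type in each mutant, with the 9 V1 genes as vertical lines and the median of all listed genes dashed. The 8 genes other than vha-18 lie on the left of the median in each panel, between -1.08 and -0.53 in the quadruple mutant, and vha-18 lies on the right in the lower 2 panels.

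Apart from vha-18, the V1 genes lay close together. In mir-58 the other 8 spanned -0.34 to -0.16, a range of 0.18. In the double mutant they spanned -0.74 to -0.52 (range 0.22) and in the quadruple mutant -1.08 to -0.53 (range 0.55). Ranked from lowest to highest among all listed genes, they stood at or below percentile 40.70 in mir-58, 15.88 for the double and 18.95 for the quadruple mutant. The places of vha-18 were percentiles 13.64, 84.50 and 80.03. The lowest V1 gene of the quadruple mutant, vha-12, stood at percentile 6.29 there.

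Wild type cancels in a difference between the fold changes of 2 mutants, and such differences carry no test here. The double mutant minus mir-58 was -0.44 to -0.24 for the 8 genes other than vha-18, with a median of -0.34, against 0.04 over all listed genes. It was 1.54 for vha-18. The quadruple minus the double mutant was -0.35 to 0.03 for the same 8, with a median of -0.16, against 0.00 over all listed genes. The largest of these further drops were those of vha-12 (-0.35), vha-13 (-0.28) and vha-11 (-0.28). For vha-10 the difference was 0.03 and for vha-18 -0.04, so their values in the 2 multiple mutants nearly coincided.

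The threshold mattered more in the double than in the quadruple mutant. At adjusted p under 0.01, 5 of 9 V1 genes were lower in the quadruple mutant, where 6.32% of all listed genes were, and none was higher, where 11.1% were. In the double mutant none was lower or higher at this threshold, against 3.49% and 8.25% of all listed genes. At adjusted p under 0.1, 8 of 9 were lower in the quadruple mutant (11.9% of all listed genes) and 5 of 9 in the double (7.66%). Every V1 gene called at 0.05 had also changed by at least 1.5-fold.

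The membrane sector of the pump was set beside V1. Of 10 V0 genes 9 were listed, and 4 fell in each multiple mutant, none rose, and none was called in mir-58. Of all listed genes 5.86% were called lower and 10.5% higher in the double mutant, and 9.82% and 14.2% in the quadruple. In mir-58 these shares were 5.79% and 1.65%. The V0 median was -0.25, -0.53 and -0.60 in mir-58, the double and the quadruple mutant, beside -0.30, -0.59 and -0.84 for V1. The genes that fell in the quadruple mutant were vha-1, vha-2 and vha-4 of the proton-carrying ring, at -0.84, -0.88 and -0.81, and vha-6, at -0.76, per the authors' deposited table. A near-identical copy of vha-2 is vha-3, which is not among the listed genes. Whether their reads were told apart was not checked, so the vha-2 value may be uncertain. The d and e subunit genes did not pass: vha-16 was at -0.57 and vha-17 at -0.60 per the authors' deposited table (adjusted p = 0.11 and 0.0523 there).

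The large a subunit of V0, which sets where the pump sits, has 4 genes with different tissues. The intestinal vha-6 fell, whereas vha-5, of the excretory canal and epidermis, stood at -0.57 there per the authors' deposited table (adjusted p = 0.0675). The other two, vha-7 of the epidermis and unc-32 of neurons, were at -0.12 and -0.05 per the authors' deposited table (adjusted p = 0.816 and 0.974). V1 genes other than vha-18, at -1.08 to -0.53, thus lay below vha-7 and unc-32. Without the 4 a subunit genes, the 5 other listed V0 genes had medians of -0.33, -0.63 and -0.81 in mir-58, the double and the quadruple mutant. Those of V1 were -0.30, -0.59 and -0.84. Both accessory subunit genes fell in the quadruple mutant, vha-19 at -0.81 (adjusted p = 0.0141) and vha-20 at -0.85 (adjusted p = 0.00624) per the authors' deposited table. Of all listed genes 9.82% were called lower there. The difference between the sectors was not tested. The sperm subunit B gene spe-5 is not among the listed genes.

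**Figure D3:**
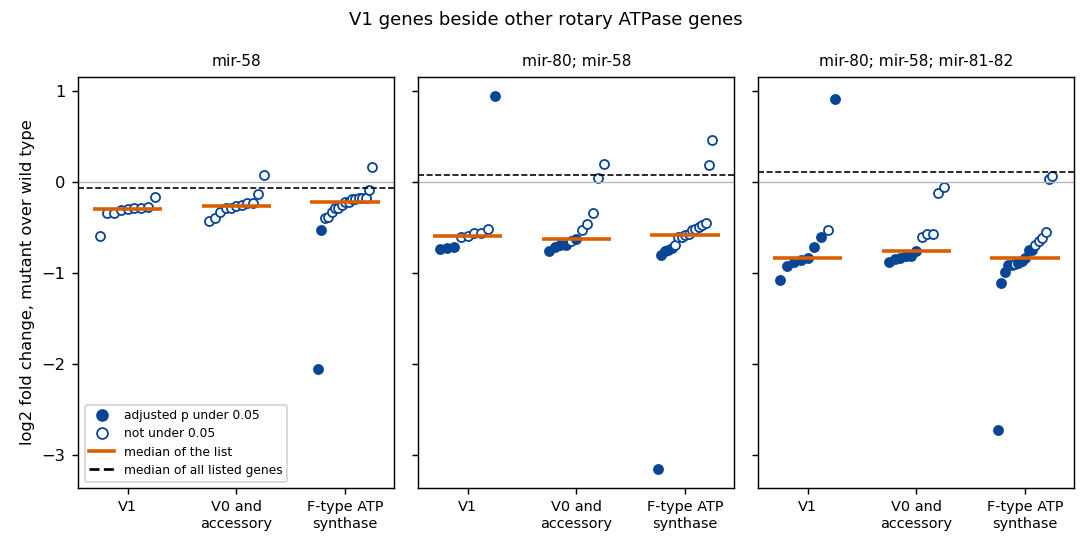
Log2 fold change over wild type of V1, V0 and accessory, and mitochondrial F-type ATP synthase genes, in 1 panel per mutant. The lists hold 9, 11 and 17 listed genes, the last with the inhibitor genes mai-1 and mai-2. Each point is a gene, filled where the adjusted p is under 0.05, with the list median as an orange bar; in the quadruple mutant the medians are -0.84, -0.76 and -0.84, against 0.11 over all listed genes (dashed).

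Other gene groups were lower in the same strains. For the counts below, 9.82% of all listed genes were called lower and 14.2% higher in the quadruple mutant. These shares were 5.79% and 1.65% in mir-58, and 5.86% and 10.5% in the double mutant. The mitochondrial F-type ATP synthase is a related rotary machine that makes ATP in place of splitting it. Its list of 17 listed genes includes the inhibitor genes mai-1 and mai-2. Of the 17, 10 fell and none rose in the quadruple mutant, with a median of -0.84, equal to that of V1. Their values ran from -2.73 to 0.07 there. Intestinal markers, 14 of 14 listed, had 1, 6 and 8 genes lower and none higher in mir-58, the double and the quadruple mutant, with medians of -0.14, -0.73 and -0.92. Their values ran from -2.14 to 0.10 in the quadruple mutant. Of 12 body wall muscle markers 8 fell in the quadruple mutant, at a median of -0.86 and a range of -1.43 to -0.13. The part of the intestine or of muscle in the V1 values was not tested. Markers of other tissues where the pump works did not have such medians. In the quadruple mutant the 13 listed excretory canal markers that are not pump genes stood at a median of 0.24 (2 higher, 1 lower). They spread widely, from -1.35 to 1.33. The 11 epidermal markers stood at 0.18 (1 higher), from -0.58 to 0.73. The 14 neuronal markers stood at 0.20 (2 higher), from -0.53 to 0.69. The counts higher on the canal and neuronal lists were near the share of all listed genes. Of 5 coelomocyte markers, genes of scavenger cells, 2 fell and the median was -0.58, with values from -1.32 to 1.19.

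The values of vha-18 had the signs of the germ line and sperm marker medians. The medians over all listed genes had these signs too, at -0.06, 0.08 and 0.11 in mir-58, the double and the quadruple mutant. Of 10 listed sperm markers, 7 fell in mir-58, and all 10 rose in each multiple mutant. Their medians were -3.35, 3.26 and 3.13, and they ran from -3.96 to -0.65 in mir-58 and from 1.65 to 4.45 in the quadruple mutant. Of 12 germ line markers 7 fell in mir-58, 1 rose in the double and 2 rose in the quadruple mutant, with medians of -0.55, 0.46 and 0.36. The germ line counts higher were near the background rates, 10.5% of all listed genes (double) and 14.2% (quadruple). The germ line medians, 0.46 (double) and 0.36 (quadruple), lay above the 0.08 and 0.11 of all listed genes. Of the 12 markers, 1 was below wild type for the double and 3 for the quadruple mutant. Of all 16309 listed genes, 7239 and 7153 were. Whether germ line genes rose more than other genes was not tested. The values of vha-18, at -0.59, 0.95 and 0.91 per the authors' deposited table, lay nearer to the germ line medians than to those of sperm. Whether germ cells contribute to the vha-18 values was not tested. In the annotation vha-18 overlaps F52E1.2 on the opposite strand. The authors' deposited table gives F52E1.2 at -0.28, -0.81 and -1.45, lower in the quadruple mutant (adjusted p = 0.0128). The sources do not say whether counting used strand, and without strand the reads of such a pair cannot be told apart.

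**Figure D4:**
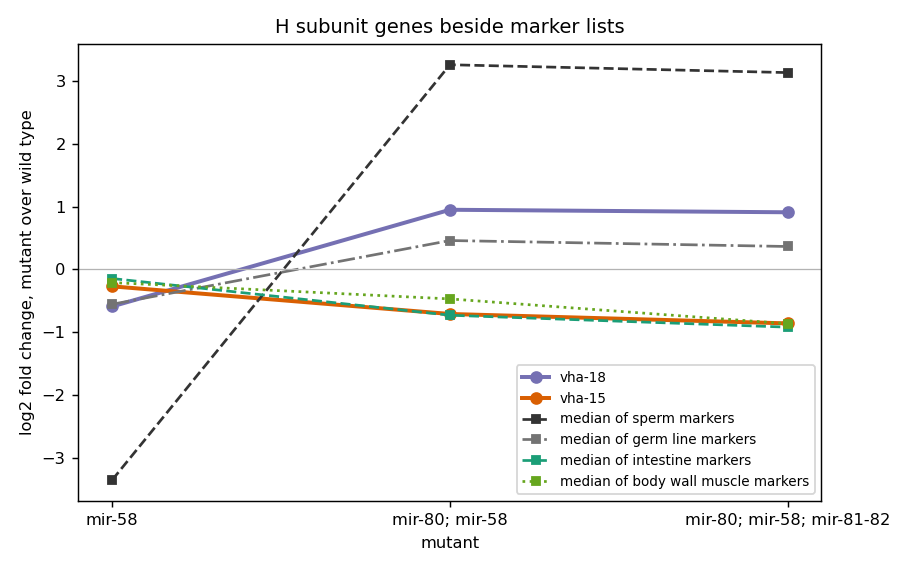
Log2 fold change over wild type of the H subunit genes vha-18 and vha-15 (circles) and medians of 4 marker lists (squares) in the 3 mutants. In the quadruple mutant vha-18 is at 0.91 beside germ line markers at 0.36 and sperm markers at 3.13, and vha-15 is at -0.86 beside intestine markers at -0.92 and body wall muscle markers at -0.86.

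The V1 genes are scattered over the genome. In the Ensembl annotation of WBcel235 the 9 genes lie on 6 chromosomes: vha-10 on I, vha-9 on II, vha-14 on III, vha-8 and vha-11 on IV, vha-13 and vha-18 on V, and vha-12 and vha-15 on X. Thus vha-13 and vha-18 share a chromosome and went opposite ways in the quadruple mutant. The exonic lengths run from 518 bp for vha-9 to 2333 bp for vha-13. Several V1 genes have a close neighbour that was not called in the quadruple mutant. Downstream of vha-9, clpp-1 was at -0.24, and on either side of vha-10, trpp-8 and ubl-5 were at 0.06 and -0.68, per the authors' deposited table. Upstream of vha-13, cept-2 was at 0.30 per the authors' deposited table. Upstream of vha-18 on the opposite strand lies pos-1, which encodes a maternal RNA-binding protein, at -0.63, 0.92 and 0.78 per the authors' deposited table. The authors' deposited table calls pos-1 higher in the double mutant (adjusted p = 0.0274) but not in the quadruple (adjusted p = 0.0626).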

How the data were processed

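Per the file headers, the authors' deposited table gives 1 log2 fold change and 1 adjusted p-value per gene for each of 3 mutants against wild type, and the submitters' processing notes name DESeq. Its version, the adjustment method, the aligner, the counter and the genome build are not given in the sources used here. The planned fit to counts was not run, because the table has none.

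Groups came from sample titles. Members were matched by name, ignoring case, and called at adjusted p under 0.05. List genes were matched by symbol or, in 24 cases, by RefSeq sequence name: 200 of 212 were listed. Ensembl release 115 (WBcel235) gave chromosomes, lengths and neighbours within 1000 bp. The members and lists were chosen with earlier results of these data known. The text names all members, V0 and accessory genes and the 5 nearest profiles. From the assembly and nutrient sensing, lysosome and ion transport lists it names the 3 genes with the smallest adjusted p in the quadruple mutant. The same was planned for the ATP synthase and marker lists, but no gene of theirs was picked that way. Genomic neighbours, rbc-1, rbc-2, hlh-30 and nhr-31 were added after their values were seen. Sequences were not used here. The tallies of calls and the list medians were tested on simulated data with a planted list. Python 3.11.15 with matplotlib 3.10.9, pandas 2.3.3 and numpy 2.4.6 was used.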

Additional observations from a re-analysis of the deposited data

How the results depend on the processing

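No paired analysis was possible because the deposited table holds comparisons of groups and no values per sample, and for the same reason no replicate could be left out. Adding spe-5 was planned and gave no value, since that gene is not listed. At adjusted p under 0.01 the double mutant had 0 lower and 0 higher V1 genes, and the quadruple mutant 0 higher. At adjusted p under 0.1 the double mutant had 5 lower. The other counts stayed within 1.5 times. The medians kept their sign when the median of all listed genes was subtracted (-0.24, -0.67 and -0.95 in mir-58, the double and the quadruple mutant), when vha-15 and vha-18 were left out (-0.30, -0.59 and -0.84) and when the mean replaced the median (-0.32, -0.45 and -0.61). None of the 27 member values changed sign on subtracting that median.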

Other observations

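Of 17 genes on the list of pump assembly factors, transcription factors and lysosomal nutrient sensing 16 were listed. In the quadruple mutant 1 of them was called higher and 0 lower by the authors' DESeq comparison, where 14.2% and 9.82% of all listed genes were. Their median was -0.15 there, beside -0.84 for V1 and 0.11 over all listed genes. The gene that rose was flcn-1, the folliculin gene, at 0.90 per the authors' deposited table (adjusted p = 0.00174). The rabconnectin genes rbc-1 and rbc-2, whose relatives help V1 join V0, were at -0.34 and -0.12 there per the authors' deposited table and were not called. Nor were hlh-30, which encodes the TFEB-like activator of lysosomal genes, at 0.06, or nhr-31, a nuclear receptor gene of the excretory canal, at -0.52, per the authors' deposited table. These 4 genes were chosen for their known roles at the pump after their values were seen. The Rag GTPase gene ragc-1, with the next smallest adjusted p in the quadruple mutant, was not called in any mutant and stood at -0.35, -0.59 and -0.61 per the authors' deposited table (adjusted p = 0.281, 0.0665 and 0.0552). For lmtr-2, a Ragulator gene, values were -0.39, -0.70 and -0.62 per the authors' deposited table, with a call in the double (adjusted p = 0.038) and adjusted p = 0.0675 in the quadruple mutant. The difference between these 2 mutants was not tested.

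Lysosomal genes went both ways. In the quadruple mutant 5 of 24 listed genes rose and 5 fell, at a median of -0.12. Of all listed genes 14.2% were called higher and 9.82% lower there. The Niemann-Pick type C relative ncr-2 was at -1.88, 2.75 and 2.71 per the authors' deposited table, the same signs as vha-18 and as the medians over all listed genes. The lysosomal membrane gene cln-3.1, a relative of the Batten disease gene, was at -0.48, -1.70 and -2.15 per the authors' deposited table, further below wild type in the quadruple mutant than any V1 gene. The ceramidase gene asah-2 rose there, at 1.25 per the authors' deposited table (adjusted p = 1.4e-05). Among 30 listed genes of proton, sodium and chloride transport the quadruple mutant had 4 higher and 5 lower. The count higher was near the 14.2% of all listed genes called higher, and 9.82% were called lower. The 3 with the smallest adjusted p per the authors' deposited table all rose there: catp-4 at 3.54, nkb-2 at 4.13, both of the sodium pump family, and the exchanger gene nhx-6 at 4.72.

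The 5 listed genes nearest to the median V1 profile, by Euclidean distance over the 3 log2 fold changes, were acdh-3, mrps-18c, tomm-22, fib-1 and ndua-5, at distances of 0.022 to 0.046. Of 16300 genes ranked this way, the nearest pump genes were vha-19 at rank 26, vha-2 at rank 37 and vha-20 at rank 84. Many genes with no part in the pump thus had profiles as close.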
